A study of Homo sapiens with 6 samples.

Results

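The genes described here write, read or remove lysine acetylation on chromatin: 48 genes that encode lysine acetyltransferases, bromodomain proteins and subunits of the NuRD, SIN3, CoREST and NCoR corepressor complexes. They were chosen by gene name for what their proteins do, and the deacetylases themselves are not among them. All 48 were found among the 60675 genes of the count table, and all 48 were among the 16905 genes with enough counts to be tested. They fall into 7 groups: 10 acetyltransferases, 5 bromodomain readers, 9 NuRD subunits, 2 histone chaperones shared between complexes (RBBP4 and RBBP7), 11 SIN3 subunits, 7 genes of CoREST with the DNA-binding repressor REST, and 4 NCoR subunits.

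The libraries came from HT1080, an established human fibrosarcoma line whose genotype is given as WT. Cells were exposed for 48 h to 1 µM of SW-113 or of SW-138, and the series asks how selective inhibitors of KDAC6 (HDAC6) are. RNA depleted of ribosomal RNA was sequenced in 3 libraries per compound, 6 in all. Every library came from inhibitor-treated cells and no vehicle group was used here, so a gene lower with SW-138 may owe this to a fall under that compound, to a rise under the other, or to both. One cell line, 1 dose and 1 time were measured. "Higher" and "lower" refer throughout to SW-138 as compared with SW-113.

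Acetyltransferases move an acetyl group from acetyl-CoA to lysines of histones and other proteins, and bromodomains bind the acetylated lysine. Deacetylases of class I take the mark off as parts of large complexes: HDAC1 and HDAC2 sit in NuRD, SIN3 and CoREST, and HDAC3 sits in NCoR. KDAC6, the stated target of the inhibitors, is mainly cytoplasmic, deacetylates tubulin among other proteins, and is not the catalytic subunit of any of these complexes.

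Library totals ran from 32771665 to 50871576 counts, and the members were measured with between 24 counts (RCOR2) and 21553 counts (CHD4) in a library. On the first principal component of all genes, which held 32.2% of the variance, SW-138 replicate 2 was far from the other libraries. It was also the lowest of the 6 libraries for 15 of the 48 members, and SW-113 replicate 1 was the highest for 13. The share of counts in stable noncoding RNA genes was 11.1% to 12.6% with SW-113 and 7.33% to 10.0% with SW-138. With mitochondrial and stable noncoding genes left out before scaling, 1152 genes passed in place of 1153, and GPS2 and MTA1 were again the members past the threshold. Summed, 10 mesenchymal markers, among them VIM and FN1, reached 7107 to 7982 CPM with SW-113 and 7960 to 9018 CPM with SW-138. CPM is counts per 1000000, for these sums of the plain library total and elsewhere of the TMM-scaled total. Of the 9 markers tested, 0 passed in either direction by edgeR, beside 6.82% of tested genes. Their median log2 fold change was -0.05. Sums of 8 epithelial markers stayed between 2.40 and 3.85 CPM and of 6 endothelial markers between 1.27 and 1.75 CPM, and EPCAM, PTPRC and HBB had under 3 counts over all 6 libraries. The 8 blood cell markers summed to 86.9 to 101 CPM and 76.9 to 82.8 CPM, nearly all of it LCP1, an actin-bundling protein that was lower with SW-138 (edgeR adjusted p = 0.0352), a call kept without SW-138 replicate 2 and lost without any other library.

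Expression of this machinery was close to equal under the 2 inhibitors. GPS2, an NCoR subunit, and MTA1, a NuRD scaffold, were lower with SW-138, by 1.22-fold and 1.14-fold, and no member was higher. These 2 of 48 are 4.17% of the members, beside 6.82% of all tested genes past the same threshold (2.76% higher and 4.06% lower; edgeR's quasi-likelihood test, Benjamini-Hochberg adjusted p under 0.05). DESeq2 and limma-voom called GPS2 and MTA1 and no other member. Scaling by total count alone called 923 genes higher (5.46%) and 377 lower (2.23%) in place of 466 and 687, or 7.69% in all, and called 2 members, GPS2 lower and KAT7 higher. The members' log2 fold changes ran from -0.29 to 0.15 with a median of -0.04, against 0.0074 for all tested genes. The median turned to 0.02 with scaling by total count alone, where 10 members changed sign.

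The other 46 members did not pass. The interval of each describes its difference under TMM scaling and the spread of these libraries, and does not cover the choice of scaling. For 47 of the 48 members the 95% interval of the log2 fold change lay within a fold of 1.5 either way, as it did for 68.2% of all tested genes. It lay within a fold of 1.2 for 37 members, against 32.6% of tested genes. The exception at 1.5-fold was RCOR2, the scarcest member, with an interval of -0.53 to 0.62. Libraries of the compounds did not overlap for 14 members (29.2%), beside 27.9% of tested genes. Of these, 11 members were lower (22.9%, beside 15.4%) and 3 higher (6.25%, beside 12.4%). An unadjusted p under 0.05 was reached by 10 members (20.8%), beside 22.3% of tested genes, with 9 lower (18.8%, beside 12.3%) and 1 higher (2.08%, beside 10.0%). Both totals are near their background. Log2 fold changes were below 0 for 30 of 48 members (62.5%), beside 48.5% of tested genes, and for 20 with scaling by total count alone. In bulk libraries, less RNA of a gene in each cell and fewer cells that carry it cannot be told apart.

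**Figure D1:**
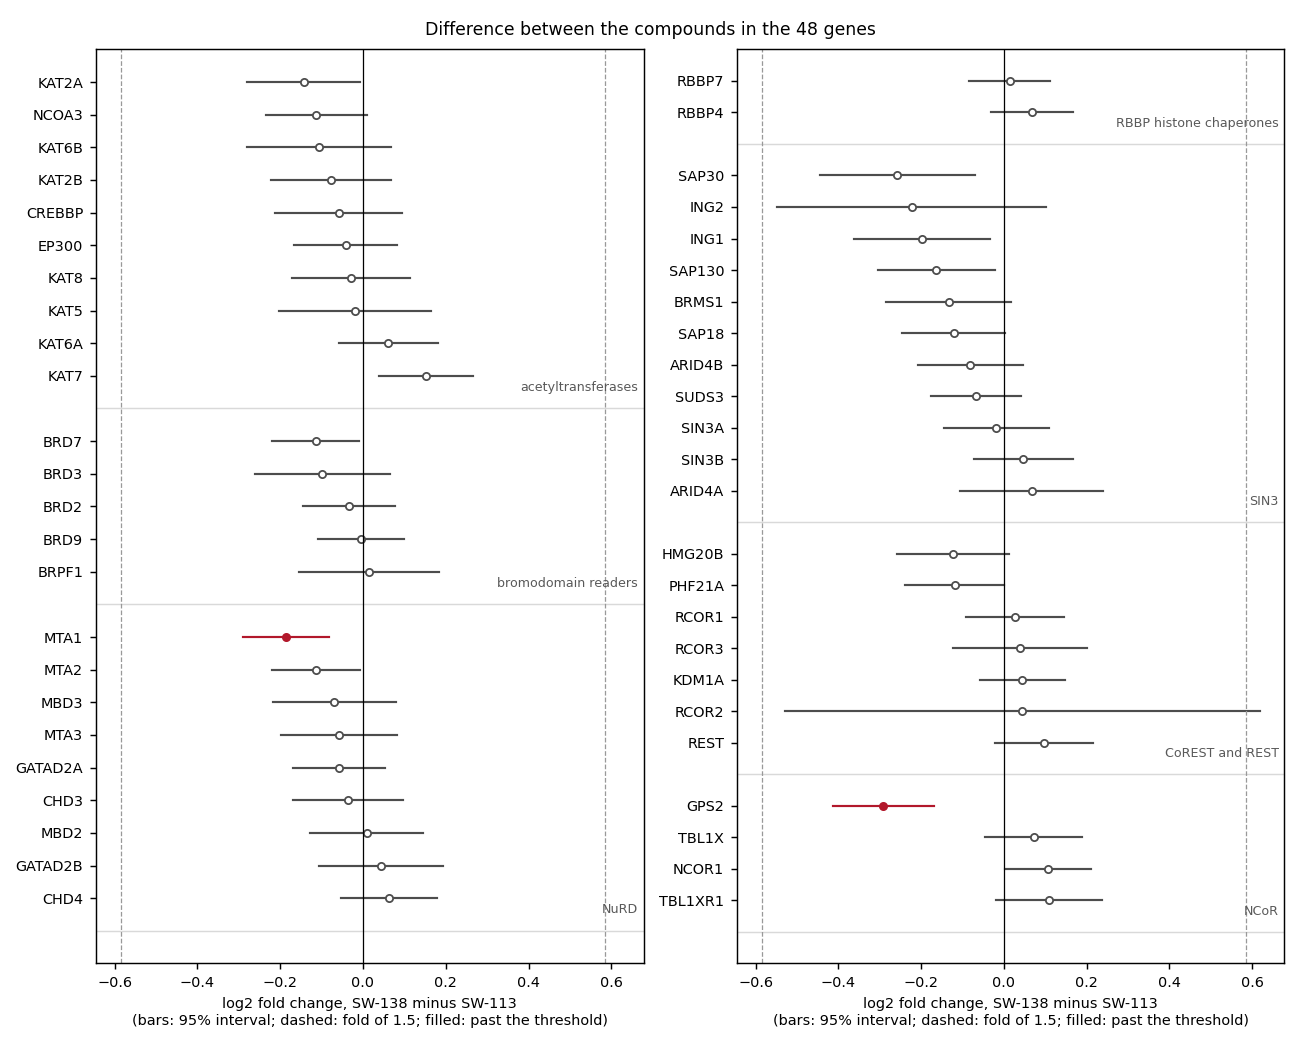
Log2 fold change of each member (x axis, SW-138 minus SW-113, n = 3 libraries per compound) with its 95% interval as a bar, grouped by complex, and dashed lines at a fold of 1.5. GPS2 and MTA1, filled, are the members past the threshold, and every interval but that of RCOR2 stays between the dashed lines.

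The acetyltransferases, the writers of the mark, held 0 of 10 members past the threshold by edgeR, DESeq2 or limma-voom, and 2 with an unadjusted p under 0.05. Their median log2 fold change was -0.05, which turned to 0.01 with scaling by total count alone. EP300 and CREBBP are paralogous coactivators that acetylate histones at enhancers. EP300 measured 99.9, 91.1 and 95.4 CPM for SW-113 against 97.3, 92.2 and 88.5 CPM for SW-138. CREBBP measured 94.5, 80.5 and 83.6 CPM for SW-113 against 88.2, 78.9 and 81.0 CPM for SW-138. The libraries of the compounds interleaved for both genes. The log2 fold changes were -0.04 ± 0.06 (SE, interval -0.17 to 0.08, adjusted p = 0.706 by edgeR) for EP300 and -0.06 ± 0.07 (interval -0.21 to 0.09, adjusted p = 0.664) for CREBBP.

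KAT7, the catalytic subunit of the HBO1 complex that acetylates histone H3 and supports replication origins, had the smallest p among the writers. It measured 70.0, 69.4 and 71.4 CPM for SW-113 against 82.3, 76.0 and 76.0 CPM for SW-138. All SW-138 libraries were above all SW-113 libraries, with replicate 1 the highest. KAT7 had a log2 fold change of 0.15 ± 0.05 (SE, interval 0.04 to 0.27), with an adjusted p of 0.109 by edgeR. Scaling by total count alone gave 0.22 and an adjusted p of 0.0383, the one setting of those tried in which KAT7 passed. KAT2A, a catalytic subunit of the SAGA and ATAC complexes, and NCOA3, a nuclear receptor coactivator, were the writers with libraries lower with SW-138 and no overlap, at -0.14 ± 0.06 and -0.11 ± 0.06 (adjusted p = 0.202 and 0.264). The remaining writers, KAT2B, KAT5, KAT6A, KAT6B and KAT8, lay between -0.11 and 0.06. KAT5, the TIP60 catalytic subunit, shares 38.6% of its annotated exon bases with RNASEH2C on the opposite strand (log2 fold change -0.05), and reads of the pair cannot be told apart there without a strand setting.

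Bromodomain readers also held 0 of 5 members past the threshold by any of the 3 tests and 1 with an unadjusted p under 0.05, with a median of -0.03 that turned to 0.03 with scaling by total count alone. BRD7, a subunit of the PBAF remodeler, had the smallest p. Its level was 57.4, 57.6 and 58.6 CPM for SW-113 against 54.1, 53.6 and 52.6 CPM for SW-138. The groups did not overlap and each was tight, with SDs of 0.623 and 0.768 CPM. The log2 fold change was -0.11 ± 0.05 (SE, interval -0.22 to -0.01, adjusted p = 0.187 by edgeR). BRD7 shares 42.3% of its exon bases with ADCY7 on the opposite strand, whose log2 fold change was 0.07 ± 0.09. BRD9, of the related noncanonical BAF remodeler, was the member nearest to equality, with levels of 57.4, 57.2 and 56.7 CPM and of 55.7, 57.2 and 57.8 CPM and an interval of -0.11 to 0.10. The BET proteins BRD2 and BRD3, which recruit transcription elongation factors to acetylated chromatin, gave -0.03 ± 0.05 and -0.10 ± 0.07, and BRPF1, the scaffold of the KAT6 enzymes, 0.01 ± 0.08. BRD3 shares 18.6% of its exon bases with BRD3OS on the opposite strand. BRD3OS had 0.516 times the CPM of BRD3 and a log2 fold change of -0.10 ± 0.08, and its part in the BRD3 value was not tested.

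**Figure D2:**
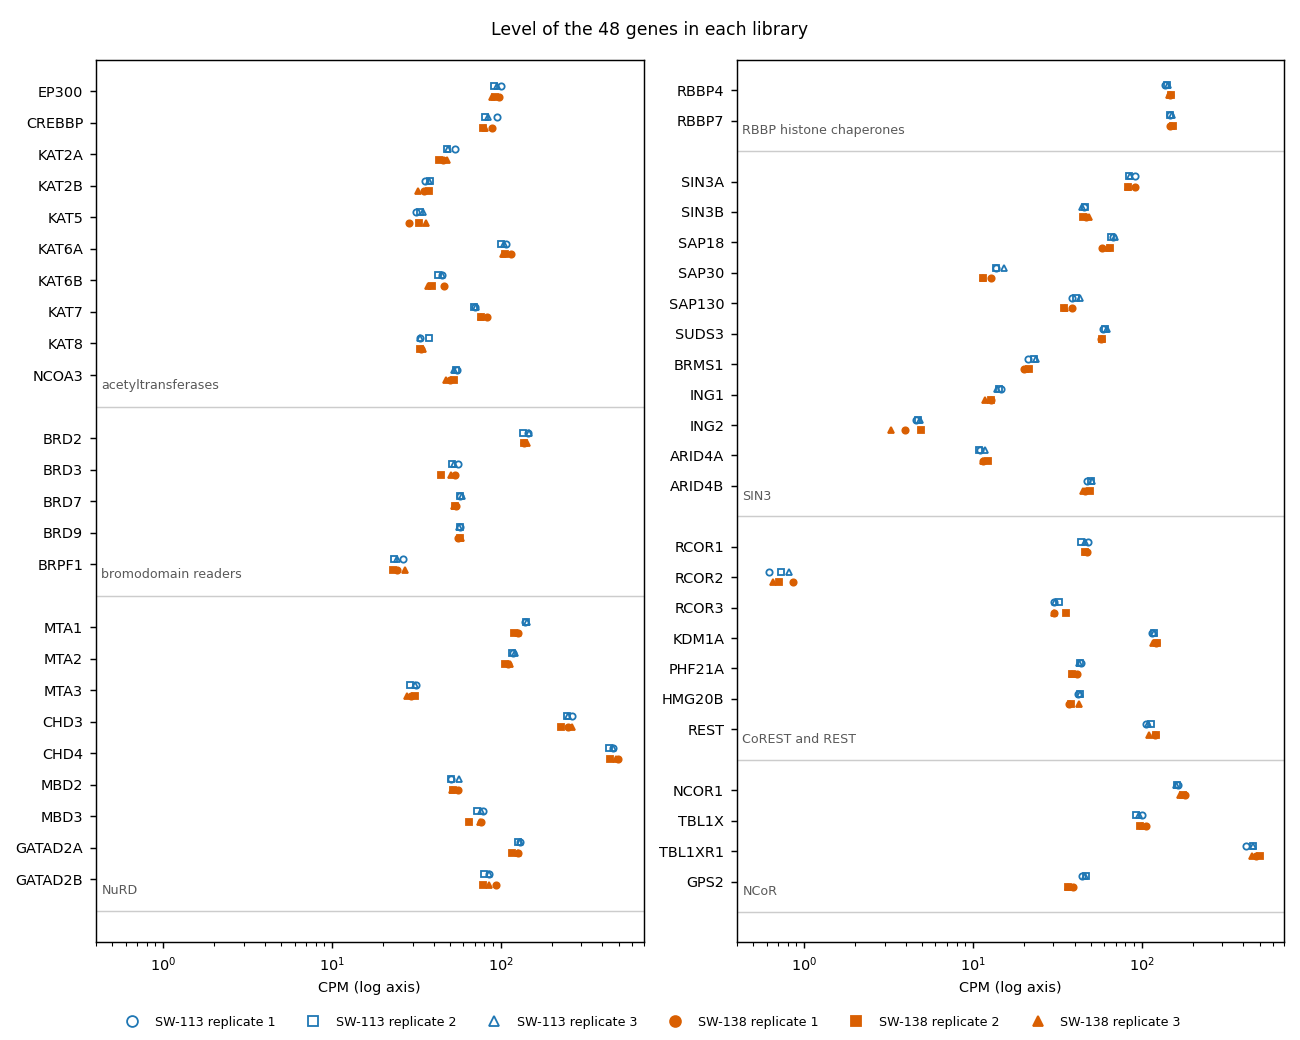
CPM of each of the 48 members in each of the 6 libraries (x axis, log scale), with open blue symbols for SW-113, filled orange symbols for SW-138 and 1 symbol shape per replicate number. GPS2 and MTA1 show orange points wholly to the left of the blue ones, while most members overlap, and RCOR2, at 0.624 to 0.863 CPM, lies far below the rest.

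NuRD couples a nucleosome remodeler to HDAC1 and HDAC2. MTA1 was its 1 subunit of 9 past the threshold (11.1%, beside 6.82% of tested genes), and it was lower. An unadjusted p under 0.05 by edgeR was reached by 2 of the 9 (22.2%, beside 22.3% of tested genes). MTA proteins are the scaffolds that bind and activate the deacetylase, and MTA1 is known for its high level in many tumours. MTA1 (ENSG00000182979) lies at chr14:105419820-105470729 on the plus strand (GRCh38). It measured 140.0, 140.4 and 143.6 CPM for SW-113 against 126.5, 119.1 and 126.8 CPM for SW-138. No library of one compound reached into the other group. The log2 fold change was -0.19 ± 0.05 (SE, interval -0.29 to -0.08), with an adjusted p of 0.0476 by edgeR, 0.0262 by DESeq2 and 0.0418 by limma-voom.

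That call was near the threshold. It was lost without any 1 of the 6 libraries (log2 fold changes -0.20 to -0.16, adjusted p = 0.0857 to 0.175), and also with DESeq2 size factors in edgeR, thinning to the smallest library, scaling by total count alone (adjusted p = 0.149) and removal of trends in transcript length and GC content (-0.16, adjusted p = 0.0646).

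The paralogs of MTA1 did not pass. MTA2 measured 117.5, 117.1 and 121.5 CPM for SW-113 against 110.4, 105.5 and 113.2 CPM for SW-138. Its groups did not overlap, and the log2 fold change was -0.11 ± 0.05 (SE, adjusted p = 0.207 by edgeR). MTA3, the scarcest of the 3 scaffolds, gave -0.06 ± 0.06, and its libraries overlapped. CHD4, the main remodeling ATPase of the complex, was 461.3, 434.6 and 463.5 CPM for SW-113 against 492.2, 444.6 and 482.3 CPM for SW-138, at 0.06 ± 0.05. The other NuRD subunits were CHD3, the methyl-CpG-binding domain proteins MBD2 and MBD3, and GATAD2A and GATAD2B, which bridge them to the remodeler. They ran from -0.07 to 0.04. The median of the 9 was -0.06, and 0.0064 with scaling by total count alone. In a comparison chosen after the values were seen, the log2 ratio of MTA1 to CHD4 per kilobase was -0.45 ± 0.05 for SW-113 and -0.70 ± 0.03 for SW-138 (SD, n = 3; exact permutation p = 0.1 over libraries, two-sided, the smallest that 3 against 3 can give).

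The promoter windows of the members past the threshold are shown because they are the genes whose RNA differed. Each is the RefSeq window from 250 bases before to 50 after the gene's start, GRCh38.p14, printed 5′ to 3′ on the gene's own strand. The MTA1 window, chr14:105419577-105419876 on the plus strand, holds 39 CpG and 77.7% GC. Capitals mark the GC box GGGCGG, found 4 times and written CCGCCC where it lies on the other strand. The GPS2 window, chr17:7315311-7315610 on the minus strand, holds 41 CpG and 71.0% GC, and capitals mark its single match to the ETS-family core CCGGAAG.
MTA1: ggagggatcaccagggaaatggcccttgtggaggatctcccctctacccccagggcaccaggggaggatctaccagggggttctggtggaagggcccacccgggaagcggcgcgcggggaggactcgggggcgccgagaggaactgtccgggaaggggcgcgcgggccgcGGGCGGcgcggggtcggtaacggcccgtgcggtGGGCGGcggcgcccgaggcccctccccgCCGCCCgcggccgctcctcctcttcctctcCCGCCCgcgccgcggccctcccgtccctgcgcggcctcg
GPS2: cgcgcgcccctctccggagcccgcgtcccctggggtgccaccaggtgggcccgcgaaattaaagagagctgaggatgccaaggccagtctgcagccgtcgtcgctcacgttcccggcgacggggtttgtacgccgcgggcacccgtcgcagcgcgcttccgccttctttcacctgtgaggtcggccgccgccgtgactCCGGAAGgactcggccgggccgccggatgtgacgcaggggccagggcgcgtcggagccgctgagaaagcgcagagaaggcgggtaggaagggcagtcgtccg

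Such windows were matched for 44 of the 48 members, without KAT6A, KAT8, RCOR2 and SAP18. Their median was 35 CpG (4 in SIN3B to 56 in BRD3) and 70.7% GC, against 26 CpG and 65.0% GC over the windows of 10212 tested protein-coding genes. Searched on both strands, the GC box GGGCGG was in 75.0% of members and 69.1% of those genes, and the ETS core CCGGAAG in 20.5% and 18.5%. The CCAAT box (CCAAT) was in 25.0% and 36.8%, the TATA box (TATAAA) in 2.27% and 5.6%, SIN3A being the 1 member with it, and the E-box CACGTG in 6.82% and 10.1%. The YY1 motif was in CREBBP, KAT5 and NCOR1 (6.82% against 2.78%). The cyclic AMP response element TGACGTCA and the NRF1 motif were in 0 of 44 member windows and in 3.19% and 2.24% of the others. No motif of this list lies within another. A match is letters in a window, not a bound site.

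RBBP4 and RBBP7 are histone chaperones that NuRD and SIN3 share. RBBP4 measured 136.6, 141.5 and 142.4 CPM for SW-113 against 146.2, 149.7 and 144.9 CPM for SW-138. The groups did not overlap, by a narrow margin. RBBP4 had a log2 fold change of 0.07 ± 0.04 (SE, interval -0.03 to 0.17, adjusted p = 0.437 by edgeR), and RBBP7 gave 0.01 ± 0.04. RBBP4 shares 18.0% of its exon bases with SYNC on the opposite strand, which was expressed at 0.0287 times the level of RBBP4 in CPM.

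The SIN3 complex is built on SIN3A or SIN3B and had 0 of 11 subunits past the threshold by edgeR, DESeq2 or limma-voom. An unadjusted p under 0.05 by edgeR was reached by 3 (27.3%, beside 22.3% of tested genes). All 3 were lower, beside 12.3% of tested genes. SIN3 had the lowest median of the 7 groups, -0.12, with 9 of 11 subunits below 0 (81.8%, beside 48.5% of tested genes). That share was much the same in the acetyltransferases (8 of 10, 80.0%) and the bromodomain readers (4 of 5, 80.0%). The SIN3 median was below 0 in all 21 alternative settings, from -0.14 to -0.06. The setting that changed only the threshold could not alter it, edgeR's robust option returned the same median, and all settings drew on the same 6 libraries. SAP30, a bridging subunit, had the smallest p. It measured 13.6, 13.7 and 15.3 CPM for SW-113 against 12.8, 11.4 and 11.5 CPM for SW-138. All SW-138 libraries were below all SW-113 libraries. The log2 fold change was -0.26 ± 0.08 (SE, interval -0.44 to -0.07, adjusted p = 0.0893 by edgeR), and it was the member added when the threshold was set at 0.1.

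Both scaffolds lay near 0. SIN3A gave -0.02 ± 0.06 and SIN3B 0.05 ± 0.05, with overlapping libraries. ING1 and ING2 are alternative subunits that dock the complex on histone H3 methylated at active promoters. ING1 gave -0.20 ± 0.07 (adjusted p = 0.131 by edgeR) with no overlap between compounds. The opposite-strand gene CARS2, which shares 5.1% of the exon bases of ING1 and had 4.36 times its CPM, was itself lower by 0.25 on the log2 scale (adjusted p = 0.0228). ING2 was lower in 2 SW-138 libraries and highest of all in SW-138 replicate 2 (4.94 CPM), at -0.22 ± 0.15. SAP18 (-0.12 ± 0.06) and SUDS3 (-0.07 ± 0.05) did not overlap between compounds, whereas SAP130 (-0.16 ± 0.06) and the SUDS3-related BRMS1 (-0.13 ± 0.07) overlapped. ARID4A and ARID4B, retinoblastoma-binding subunits, gave 0.07 ± 0.08 and -0.08 ± 0.06.

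CoREST joins the lysine demethylase KDM1A to HDAC1 and HDAC2 and is recruited by REST, which silences neuronal genes in other cells. The group had 0 of 7 members past the threshold by the same 3 tests. An unadjusted p under 0.05 by edgeR was reached by 1 (14.3%, beside 22.3% of tested genes). The group's median was 0.04, which turned to -0.01 with trends in length and GC content removed. PHF21A, which reads unmethylated histone H3, had the smallest p, with 44.0, 42.9 and 42.2 CPM for SW-113 and 41.4, 38.7 and 38.8 CPM for SW-138. The groups did not overlap (-0.12 ± 0.05, SE, interval -0.24 to 0.0010, adjusted p = 0.222 by edgeR). REST measured 105.7, 114.1 and 109.5 CPM for SW-113 against 120.4, 120.9 and 111.0 CPM for SW-138. SW-138 replicate 3 fell among the SW-113 libraries. The log2 fold change of REST was 0.10 ± 0.05 (SE, interval -0.02 to 0.22, adjusted p = 0.335 by edgeR). KDM1A gave 0.04 ± 0.05, RCOR1 0.03 ± 0.05, RCOR3 0.04 ± 0.07, and HMG20B, a DNA-bending subunit, -0.12 ± 0.06. HMG20B shares 9.57% of its exon bases with MFSD12 on the opposite strand, which had 1.44 times its CPM and a log2 fold change of 0.14 ± 0.10.

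Neuronal genes that REST is known to repress were compared alongside, from a list of 26 of which 14 were expressed enough to be tested. REST itself did not pass, and 4 of the 14 targets did (28.6%, beside 6.82% of tested genes), 2 higher and 2 lower. An unadjusted p under 0.05 by edgeR was reached by 8 of the 14, 5 higher and 3 lower, beside 22.3% of tested genes. The median log2 fold change of the 14 was 0.26, against 0.0074 for all tested genes. The list was chosen with earlier results of these data known, so these values are a description and not a test of REST. BDNF, a neurotrophin, was higher, at 19.9 ± 0.922 CPM for SW-113 and 29.4 ± 0.636 CPM for SW-138 (SD, n = 3; 0.57 on the log2 scale, adjusted p = 0.00144 by edgeR). STMN3, a microtubule-destabilizing protein, was higher by 0.46 (adjusted p = 0.0143 by edgeR), and its call rested on each SW-113 library and on SW-138 replicate 1. NEFL, a neurofilament subunit, was lower, at 3.98 ± 0.422 CPM for SW-113 and 1.66 ± 0.229 CPM for SW-138 (-1.26 on the log2 scale, adjusted p = 0.00298 by edgeR). The sodium channel SCN2A, named after its value was seen, was also lower (-0.34 on the log2 scale, adjusted p = 0.0181 by edgeR). Its call was lost when SW-113 replicate 1, SW-113 replicate 2, SW-138 replicate 1 or SW-138 replicate 3 was left out. STMN2 and SYT4 had under 3 counts over all 6 libraries.

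NCoR carries HDAC3 to nuclear receptors and other factors, and its 4 members lay on both sides of 0. NCOR1, the scaffold, measured 164.3, 162.6 and 158.7 CPM for SW-113 against 179.8, 175.2 and 167.7 CPM for SW-138. All SW-138 libraries were above all SW-113 libraries. NCOR1 had a log2 fold change of 0.11 ± 0.05 (SE, interval 0.0029 to 0.21, adjusted p = 0.235 by edgeR). TBL1X and TBL1XR1, the WD-repeat subunits that exchange corepressor for coactivator, gave 0.07 ± 0.05 and 0.11 ± 0.06, with overlapping libraries. With trends in length and GC content removed these 3 stood at 0.07, 0.03 and -0.01.

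GPS2, the smallest of these 4 genes in transcript length, was lower. It binds NCOR1 and TBL1 proteins inside the complex and also restrains inflammatory kinase signalling in the cytoplasm. GPS2 (ENSG00000132522) lies at chr17:7311324-7315564 on the minus strand (GRCh38). It measured 44.4, 47.1 and 46.4 CPM for SW-113 against 39.2, 36.6 and 36.8 CPM for SW-138. The lowest SW-113 library stood above the highest SW-138 library. The means were 46.0 ± 1.37 and 37.5 ± 1.43 CPM (SD, n = 3), and the log2 fold change was -0.29 ± 0.05 (SE, interval -0.41 to -0.17, adjusted p = 0.0124 by edgeR and 0.00239 by DESeq2).

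The call held with trends in length and GC content removed (-0.24, adjusted p = 0.0398) and with scaling by total count alone (adjusted p = 0.0357). It was lost without SW-113 replicate 2 (-0.28, adjusted p = 0.0552) and without SW-113 replicate 3 (-0.29, adjusted p = 0.0686), and kept without each of the other 4 libraries. GPS2 shares 241 exon bases, 7.8% of its exons, with EIF5A on the opposite strand, each of them through a transcript outside the basic annotation set. EIF5A had 11.5 times the CPM of GPS2 and measured 500.3 ± 25.0 and 459 ± 18.9 CPM (SD, n = 3; -0.13 ± 0.05, SE, adjusted p = 0.228 by edgeR). Its part in the GPS2 value was not tested. The log2 ratio of GPS2 to NCOR1 per kilobase was chosen after the values were seen. It was 0.98 ± 0.06 for SW-113 and 0.58 ± 0.04 for SW-138 (SD, n = 3). The difference was -0.40 (exact permutation p = 0.1, two-sided, the smallest that 3 against 3 can give). Trends in length and GC content were not removed from this ratio.

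The deacetylases that these complexes carry were also near equality. HDAC1 was 101 ± 3.60 CPM for SW-113 and 97.0 ± 1.96 CPM for SW-138 (SD, n = 3), HDAC2 194 ± 11.5 and 199.7 ± 3.55 CPM, and HDAC3 33.8 ± 0.780 and 32.3 ± 1.14 CPM. Their log2 fold changes were -0.06 ± 0.05, 0.04 ± 0.05 and -0.07 ± 0.06 (SE), with adjusted p of 0.491, 0.713 and 0.515 by edgeR. DESeq2 and limma-voom called 0 of the 3, and none had an unadjusted p under 0.05.

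**Figure D3:**
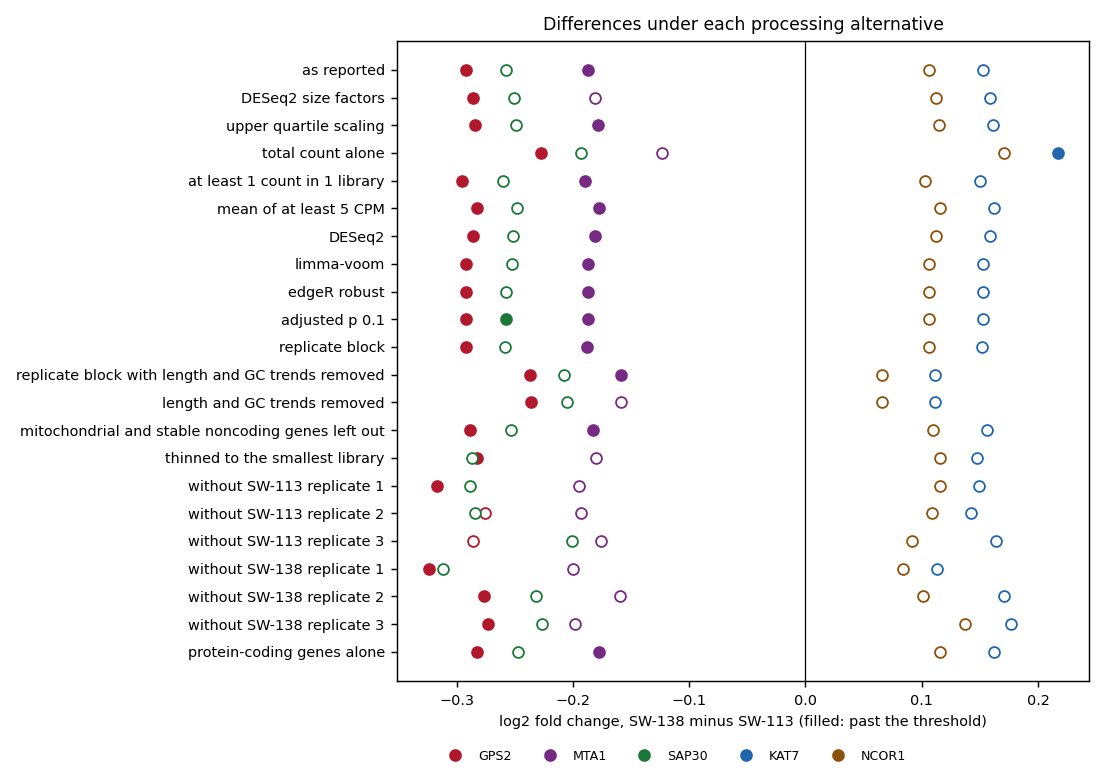
Log2 fold change (x axis, SW-138 minus SW-113) of GPS2, MTA1, SAP30, KAT7 and NCOR1 as reported and under each processing alternative (y axis), with filled points where the gene passed the threshold of that setting. GPS2 stays between -0.32 and -0.23 and is filled except without SW-113 replicate 2 or 3, and MTA1 is open in every setting that leaves out a library.

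Levels can be compared between members per kilobase of exon. CHD4 was the highest at 68.1 CPM per kilobase, followed by TBL1XR1 at 55.8, RBBP7 at 54.7, MTA1 at 45.9 and KDM1A at 38.0. The lowest were RCOR2 at 0.281, ARID4A at 1.82 and ING1 at 2.09 CPM per kilobase. With length taken from the longest transcript, RBBP7 (64.0) passed TBL1XR1 (57.8). GPS2 stood ninth of the 48 at 26.2 CPM per kilobase. Within complexes some paralogs were unequal: CHD4 was 2.09 times CHD3, RBBP7 3.06 times RBBP4, MTA2 7.54 times MTA3, TBL1XR1 4.65 times TBL1X, and ARID4B 4.13 times ARID4A. Others were closer. EP300 was 1.26 times CREBBP, SIN3A 1.27 times SIN3B, RCOR1 1.28 times RCOR3, MBD3 1.29 times MBD2 and MTA1 1.37 times MTA2. Between libraries of one compound the members had a median coefficient of variation of 3.59% (SW-113) and 4.96% (SW-138), against 5.42% and 6.38% in the 13602 tested genes with a mean of at least 1 CPM. The members' median level was 54.2 CPM and that of those genes 24.7 CPM.

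The balance between paralogs, which does not depend on the scaling between libraries, was compared in 16 pairs. In 6 of the 16 the log2 ratio per kilobase did not overlap between compounds. Single tested genes did not overlap in 27.9% of cases, and no share over other pairs of genes was computed. For KAT6A to KAT6B, catalytic subunits of the same complex, it was 1.53, 1.51 and 1.49 with SW-113 and 1.58, 1.71 and 1.76 with SW-138. BRD7 to BRD9 gave -1.20, -1.19 and -1.15 against -1.24, -1.29 and -1.33, and MTA1 to MTA2 gave 0.49, 0.50 and 0.48 against 0.44, 0.41 and 0.40. The first ratio was shifted toward KAT6A with SW-138, the second away from BRD7 and the third away from MTA1. GATAD2A to GATAD2B gave 0.91, 0.96 and 0.90 against 0.73, 0.87 and 0.86. RBBP4 to RBBP7 gave -1.67, -1.62 and -1.64 against -1.56, -1.59 and -1.61. ARID4A to ARID4B gave -2.10, -2.17 and -2.10 against -1.99, -1.99 and -1.93. The widest of the 6 shifts, that of KAT6A to KAT6B, was 0.17 on the log2 scale. With 3 libraries against 3 the exact permutation test (two-sided) gave p = 0.1 in each of these 6 pairs, the smallest it can give, and 0.267 after Benjamini-Hochberg adjustment over the 16, so this test could not place any pair past a threshold of 0.05. EP300 to CREBBP, 0.32 ± 0.06 and 0.34 ± 0.05 (SD, n = 3), and TBL1X to TBL1XR1, -2.20 ± 0.13 and -2.24 ± 0.11, overlapped.

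**Figure D4:**
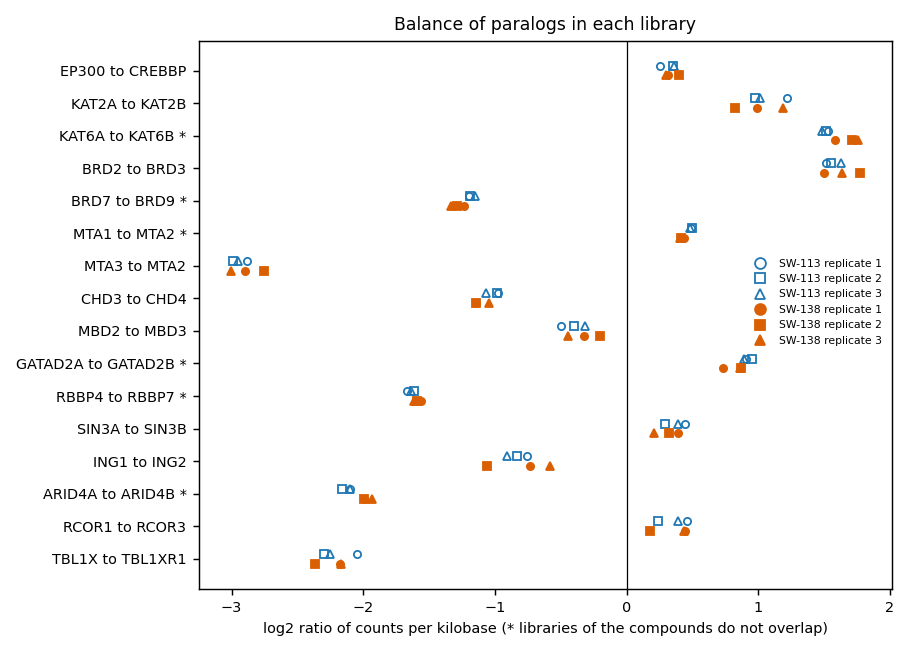
Log2 ratio of counts per kilobase (x axis) in each library for 16 pairs of paralogous members, with open blue symbols for SW-113 and filled orange symbols for SW-138. Pairs marked with an asterisk are the 6 whose libraries do not overlap between compounds, and their shifts are small beside the distance between pairs.

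Longer members had the higher fold changes. Spearman's rho between log2 fold change and the length of the longest coding transcript was 0.54 across the 48 genes, as a description, since genes in the same 6 libraries are not independent replicates. Over 16784 tested genes with a length it was 0.17. The 16 shortest members (1108 to 3675 bases), among them SAP30, ING2, GPS2 and MTA1, had a median of -0.12. Tested genes in that range of lengths had a median of -0.02. The middle 16 had -0.06 against 0.04. The longest 16 (5946 to 10803 bases), which include KAT7, NCOR1 and TBL1XR1, had 0.05 against 0.04. From short to long, 13, 10 and 7 of 16 members were below 0, beside 53.4%, 40.9% and 37.0% of tested genes. With trends in length and GC content of all genes removed, rho was 0.32 in the members and 0.03 in all genes, and the medians from short to long were -0.09, -0.06 and -0.0027. GPS2 and SAP30 then stood at -0.24 and -0.21. Removing the trends changed the sign of 7 members.

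**Figure D5:**
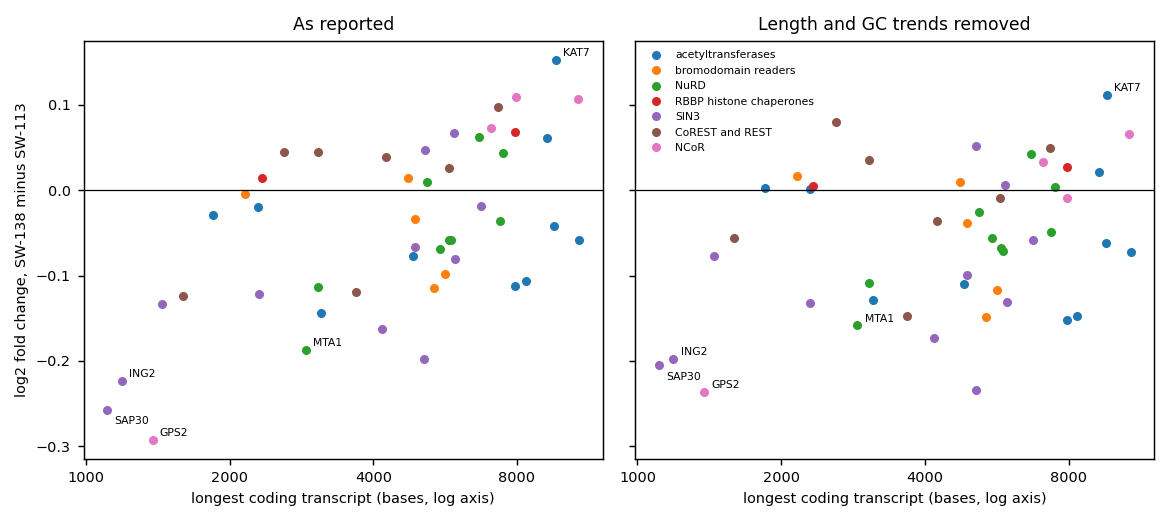
Log2 fold change of each member (y axis, SW-138 minus SW-113) against the length of its longest coding transcript (x axis, bases, log scale), as reported on the left and with trends in length and GC content removed on the right, coloured by group. GPS2, SAP30 and ING2, all short, lie lowest on the left, where on the right the longer ING1 (-0.23) lies beside them, and the upward slope is shallower on the right (rho 0.54 and 0.32, n = 48).

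Other genes of the acetylation pathways were read from lists of their own. Of 14 other acetyltransferases and 31 other readers of acetyl-lysine, 0 passed in either direction by edgeR, beside 6.82% of tested genes. An unadjusted p under 0.05 was reached by 2 and 1 of them, beside 22.3% of tested genes. DESeq2 called 1 of them, ATAD2. The smallest p among the acetyltransferases belonged to ATAT1, the tubulin acetyltransferase (log2 fold change -0.31, adjusted p = 0.161 by edgeR), NCOA1 (-0.13) and TAF1 (0.10). Among the readers they were those of ATAD2 (0.22, adjusted p = 0.0538 by edgeR), DPF2 (0.11) and ATAD2B (0.20).

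In the enzyme complexes, TAF10, a subunit of SAGA and TFIID, was lower (-0.32, adjusted p = 0.00977 by edgeR) and TADA2A, an ATAC subunit, was higher (0.31, adjusted p = 0.0289). These were 2 of 21 SAGA and ATAC subunits (9.52%, beside 6.82% of tested genes). SUPT7L gave 0.15 and did not pass. Of 29 subunits of TIP60, MSL, NSL, MOZ and HBO1, 1 passed (3.45%, beside 6.82% of tested genes). This was MRGBP, a TIP60 subunit, which was lower (-0.25, adjusted p = 0.0447 by edgeR) and lost its call without any 1 of the 6 libraries. JADE2 (-0.28, adjusted p = 0.0526 by edgeR) and KANSL1 (0.17) did not pass. TAF10 lost its call without SW-113 replicate 3, and TADA2A without any 1 of SW-113 replicates 2 and 3 and SW-138 replicates 1 and 3.

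Among 22 other corepressor subunits, 2 passed as higher and 1 as lower (13.6%, beside 6.82% of tested genes). CDK2AP1, a small NuRD subunit, was lower, at 43.3 ± 0.455 CPM for SW-113 and 32.2 ± 1.24 CPM for SW-138 (SD, n = 3; -0.43 on the log2 scale, adjusted p = 0.00255 by edgeR) and passed without each library in turn. ZNF217, a zinc finger partner of CoREST, and OGT, the O-GlcNAc transferase that binds SIN3A, were higher at 0.27 and 0.29 (adjusted p = 0.0136 and 0.0213 by edgeR), and both lost their calls without any 1 of SW-113 replicates 2 and 3 and SW-138 replicate 1. Of 8 genes that supply acetyl-CoA, 1 passed (12.5%, beside 6.82% of tested genes). An unadjusted p under 0.05 by edgeR was reached by 4 of the 8, each lower, beside 12.3% of tested genes lower at that p. The median log2 fold change of the 8 was -0.12. SLC25A1, the mitochondrial citrate carrier, was lower (-0.36, adjusted p = 0.0129 by edgeR, not past the threshold without SW-113 replicate 3), while CRAT (-0.19) and PDHA1 (-0.14) did not pass.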

How the data were processed

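RNA of 6 HT1080 libraries, 3 per compound at 1 µM for 48 h, was analysed. The authors deposited 1 table of expected counts per gene, model estimates that can be fractional. Per the submitters' processing notes Trimmomatic 0.39, Bowtie2 2.5.4, RSEM 1.3.3, DESeq2 1.42.0 and build GRCh38 were named, with no role or order. For annotation and strand the setting is not given in the sources used here. RSEM shares multi-mapped reads among genes, and pseudogene copies named in the table had at most 1.41% of a member's CPM (NCOR1). Expected counts were rounded. Library totals ran from 32771665 to 50871576 counts. Genes were kept with filterByExpr, scaled by TMM and compared with edgeR 4.0.16 (quasi-likelihood, no block, Benjamini-Hochberg over 16905 genes at 0.05) in R 4.3.3. Standard errors came from limma-voom (limma 3.58.1), and 95% intervals were centred on the edgeR fold changes. The fit was tested on simulated data. No label describes the replicates as separate cultures. The p-values then reflect only how these libraries vary, which may be technical variation.

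Coordinates, lengths and overlaps came from GENCODE release 29, promoter windows from RefSeq GRCh38.p14, and figures from matplotlib 3.10.9. KAT14, MIDEAS and SINHCAF were found by identifier under older names. Members, lists, pairs and alternatives were chosen with earlier results of these data known. Every member may be named. Library values were given for members past the threshold, the smallest p in each group, REST, EP300, CREBBP, NCOR1 and pairs with no overlap, and up to 3 genes with the smallest p were named from each other list. Further members, and library values of MTA2, CHD4 and BRD9, were added after their values were seen. Alternatives changed the scaling, low-count filter, test, threshold, block, trends, depth and libraries, and protein-coding genes alone was chosen after seeing the data.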

Additional observations from a re-analysis of the deposited data

How the results depend on the processing

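The number of genes past the threshold, 1153 as reported, was 2060 with genes kept at 1 count in 1 library, 2012 at an adjusted p of 0.1, 2363 with a block on replicate number, 2308 with the block and trends in length and GC content removed, and 303 to 1616 with 1 library left out. Of the members, 2 as reported, 1 passed with DESeq2 size factors, with trends removed and with thinning to the smallest library (GPS2 each time), 2 with the block, 6 with the block and trends removed (BRD7, GPS2, ING1, MTA1, NCOA3 and PHF21A, all lower), and 0 to 1 with 1 library left out, 0 without SW-113 replicate 2 or 3. Of the other pathway genes, 11 as reported, 17 passed at an adjusted p of 0.1, 19 with the block, 29 with the block and trends removed, and 4 to 15 with 1 library left out. Paralog pairs with no overlap numbered 6, and 6 to 7 with 1 library left out, which can only keep or raise that number. All 3 differences between same-numbered libraries had 1 sign in the same 6 pairs, which follows wherever libraries do not overlap. Neither count is therefore a check on these pairs. The cause of these changes was not tested, beyond fewer libraries or genes where they were left out.

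Among the 35 genes that the naming rule picks beyond plain membership, 12 of them past the threshold, 733 values were recomputed, of which 654 kept their direction and their side of the threshold, 36 lost it, 36 gained it and 7 changed sign, none of these in a gene past the threshold. Over all 48 members, 10 changed sign with scaling by total count alone and 7 with trends removed. With scaling by total count alone CREBBP was 0.0054, EP300 0.022 and HDAC1 0.00019. HDAC2 was -0.017 with trends removed and -0.017 with the block and trends removed. With 1 library left out CREBBP ranged from -0.11 to 0.011 and HDAC2 from -0.0088 to 0.065.

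Same-numbered libraries of the compounds had deviations from their group means that correlated at 0.05, 0.21 and 0.05, so the pairing by number is not established, and no label says whether a number marks a shared batch. Not every library correlated best with its own number. RCOR2, at 24 to 36 counts, was the member whose interval reached beyond 1.5-fold.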
